A study of Glycyrrhiza uralensis with 30 samples.

Results

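Roots of *Glycyrrhiza uralensis* seedlings, a licorice grown for its root, were compared after 2 h of simulated drought and before it. The comparison holds 6 of the 30 libraries of the series, chosen by their sample descriptions: 3 of underground parts (roots) kept for 2 h in a nutrient solution with 100 g/L of polyethylene glycol 6000 (PEG 6000), here libraries 1, 2 and 3, and 3 of untreated underground parts, here control libraries 31, 32 and 33. All came from seedlings labelled as 60 days old, whereas the protocol gives 1 week of hydroponic growth before treatment. The controls are the 0 h group and are labelled as distilled water, and no untreated roots were sampled at 2 h, so PEG, the medium and the elapsed time cannot be told apart. The labels do not say whether replicate libraries came from different plants or cultures, so p-values measure the spread among libraries, and that spread may be technical.

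PEG 6000 stays outside the cells and lowers the water potential of the medium, so that roots meet a water deficit at once, before stems and leaves. In plants, such a deficit is known to raise the hormone abscisic acid and to change the RNA levels of genes for water channels, for solutes that hold water, for protective dehydrins and for many transcription factors. In licorice roots, interest centres on the triterpenoid glycyrrhizin and on flavonoids. The deposited tables list 34445 genes by identifier and do not pair identifiers with names, so genes are described by level, size of change and behaviour elsewhere in the series, and 4 are given by identifier, 2 for each direction.

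The values are TPM, shares of each library's RNA scaled to a nominal sum of 1000000, which keep no read depth. Genes at 1 TPM or more numbered 20303 ± 356 at 2 h and 20571 ± 287 in control (SD, n = 3), and an exact two-sided permutation test gave p = 0.4, where the smallest p that 3 against 3 libraries allows is 0.1. The top 10 genes by TPM took 6.79% to 7.75% of each library at 2 h and 8.04% to 14.15% in control (exact permutation p = 0.1). Across 23107 genes with enough RNA to be tested, the correlation of log2(TPM + 1) was 0.896 to 0.923 within the 2 h group, 0.876 to 0.922 within the controls and 0.804 to 0.874 between the groups. The same 6 libraries correlated at 0.555 to 0.746 with the shoot libraries, so each stood with the other roots, as labelled.

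The gene chosen as the largest rise on the log2 scale was Glyur000803s00029839. Libraries 1, 2 and 3 had 221, 241 and 136 TPM of it, and it was listed at 0 in all 3 controls, so no fold is given (limma adjusted p = 7.79e-04). Later root libraries had 0, 7.86 and 2.68 TPM after 6 h, 0, 0 and 5.04 TPM after 12 h, and 18.9, 2.14 and 99.7 TPM after 24 h. The 2 h libraries lay above every other root library. In shoots it was listed at 0 in all 6 libraries of 0 h and 2 h.

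The gene with the largest rise in TPM was Glyur001663s00027486, an abundant root RNA. It had 1431, 966 and 595 TPM in the controls and 6151, 7026 and 6596 TPM at 2 h. The 3 treated libraries sat close together and far above the controls, with a rise of 2.81 on the log2(TPM + 1) scale (SE 0.39, limma adjusted p = 6.96e-04). Later root means were 1405 ± 216 TPM after 6 h, 872 ± 149 TPM after 12 h and 1660 ± 992 TPM after 24 h (SD, n = 3). Shoots held far less of it, with 30.4, 15.5 and 114 TPM in control and 19.0, 367 and 122 TPM at 2 h. Those shoot groups overlapped (limma adjusted p = 0.523), and the difference between the root and the shoot change, 1.501 on the log2 scale, did not pass its own test (adjusted p = 0.547).

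The largest fall on the log2 scale was that of Glyur000027s00001583. Its controls had 513, 457 and 165 TPM, and the 2 h libraries had 16.9, 15.8 and 1.23 TPM. All treated values lay below all controls, and the level fell by 5.28 on the log2(TPM + 1) scale (SE 0.75, limma adjusted p = 7.47e-04). Its root mean was 446 ± 117 TPM after 6 h, 41.4 ± 7.08 TPM after 12 h and 2.97 ± 3.51 TPM after 24 h (SD, n = 3). In shoots it had 728, 1036 and 520 TPM in control and 2.32, 1.16 and 2.92 TPM at 2 h (log2 difference -7.91, limma adjusted p = 1.59e-08). The shoot fall was 2.64 larger on the log2 scale, a difference that did not pass (adjusted p = 0.0580).

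The largest fall in TPM was in a very abundant root RNA, Glyur001069s00022473. It went from 11814, 12983 and 10936 TPM in control to 2216, 2556 and 1550 TPM at 2 h. The groups lay far apart, and the level fell by 2.53 on the log2(TPM + 1) scale (SE 0.36, limma adjusted p = 7.41e-04). Roots held 12774 ± 1518 TPM of it after 6 h, 6466 ± 1036 TPM after 12 h and 2290 ± 601 TPM after 24 h (SD, n = 3). Shoots had 7019, 8848 and 7826 TPM in control and 885, 503 and 550 TPM at 2 h, a log2 difference of -3.65 (limma adjusted p = 4.98e-05) that was not shown to differ from that of roots (adjusted p = 0.200).

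**Figure D1:**
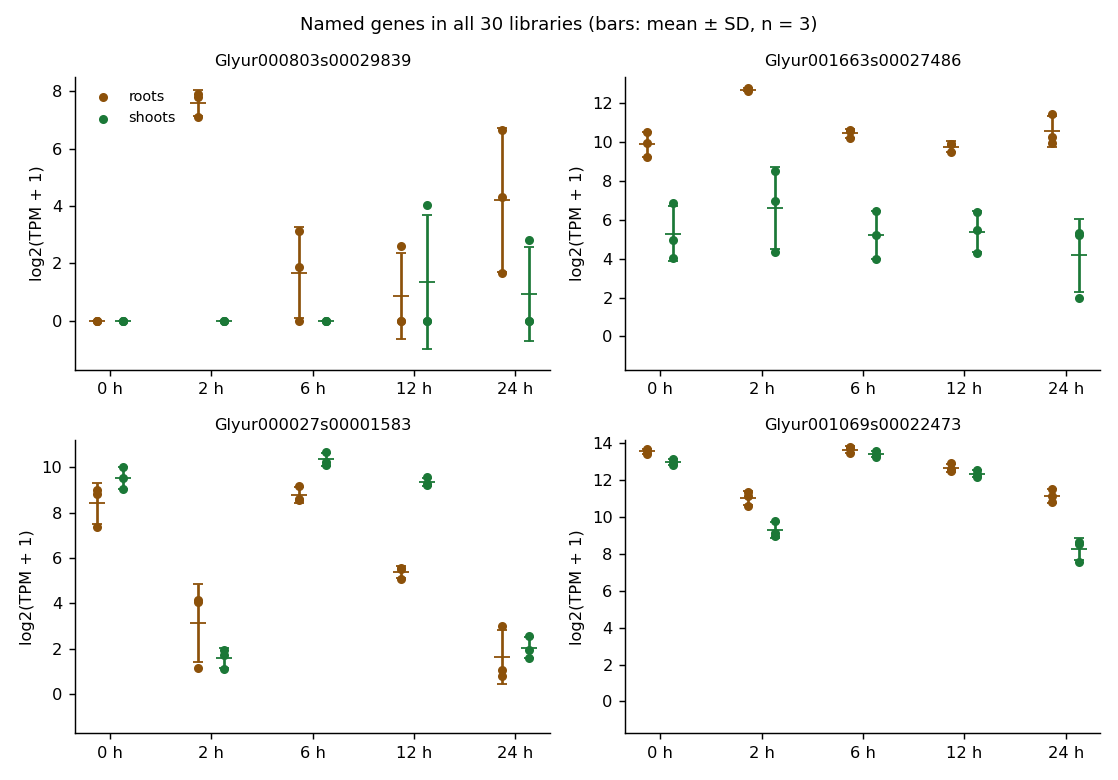
Level of the 4 named genes, as log2(TPM + 1), against time in PEG, in roots and shoots; each point is a library and bars give the mean ± SD (n = 3). In roots, the genes of the upper panels stand highest at 2 h, and those of the lower panels are low at 2 h and 24 h and near control at 6 h.

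Across the transcriptome, more genes rose than fell at 4-fold or more at 2 h, on the log2(TPM + 1) scale. Counted at any size, falls were more numerous in the TPM as deposited and fewer than rises after median-ratio rescaling. Of the 23107 genes tested with limma, 1388 rose and 1856 fell at a Benjamini-Hochberg adjusted p under 0.05, which is 6.01% and 8.03% of them, or 14.0% in all. At 2-fold or more, 959 rose (4.15%) and 1188 fell (5.14%). At 4-fold or more, 390 rose (1.69%) and 245 fell (1.06%). At 16-fold or more, 71 rose (0.307%) and 15 fell (0.0649%). The sizes depended on the pseudocount. With 0.1 in place of 1, 508 rose and 386 fell at least 4-fold, and 134 rose and 74 fell at least 16-fold. The excess of large rises was then smaller in proportion. The median change was 1.35 on the log2 scale among genes that rose and -1.16 among those that fell, beside -0.12 over all genes tested. The excess of falls depended on the scaling. When TPM were rescaled by median ratios, the median gene stood at -0.0098, 1928 genes rose and 1434 fell, and rises made up 57.35% of the calls in place of 42.8%. After quantile normalization they made up 49.7%, with 1672 rises and 1693 falls.

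Most called genes separated the libraries completely, which is largely built in, since the calls were made on these same libraries. All 3 treated libraries were above all 3 controls for 1378 of the 1388 genes that rose and below them for 1816 of the 1856 that fell, whereas over all tested genes 12.3% lay above and 19.2% below without overlap. Another 145 genes were at least 4-fold higher and 134 at least 4-fold lower on average without passing the test.

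Some called genes were listed at 0 throughout 1 of the groups. Of the risers, 19 were listed at 0 in all 3 controls, with means at 2 h of 2.37 to 199 TPM and a median of 6.17 TPM. Of these, 5 were again listed at 0 in all 3 root libraries of 6 h, 5 at 12 h and 1 at 24 h. Of the fallers, 25 were listed at 0 in all 3 libraries of 2 h, from control means of 1.39 to 73.2 TPM with a median of 6.92 TPM. Of these, 4 were listed at 0 throughout 6 h, 9 throughout 12 h and 10 throughout 24 h. How many of all tested genes were listed at 0 throughout a group was not counted, so these counts do not set the called genes apart. A value listed at 0 can reflect few reads at low TPM, since the depth is unknown.

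**Figure D2:**
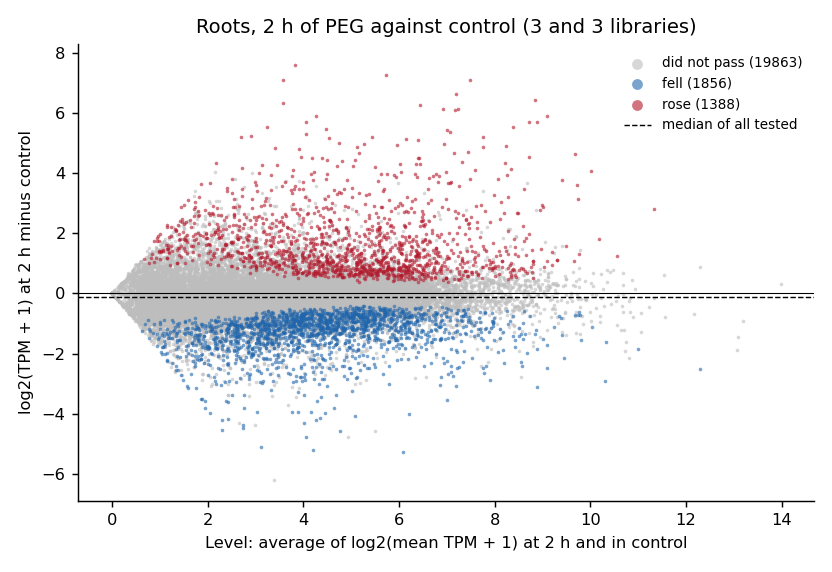
Difference of log2(TPM + 1) between 2 h and control in roots (y axis) against the level of the gene (x axis, log2 scale), one point per tested gene. The 71 rises of 16-fold or more spread over low and high levels, and the dashed median of all genes lies at -0.12.

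The genes called made up much of the RNA pool. Summed over the 1388 genes that rose, the share of TPM was 6.09%, 6.53% and 5.33% in control libraries 31, 32 and 33, and 20.5%, 20.8% and 26.4% in libraries 1, 2 and 3. The 1856 genes that fell went from 15.8%, 15.1% and 15.5% to 6.21%, 6.11% and 5.21%. Both sets were chosen on these libraries, so these sums describe size and support nothing. A few genes held much of the shift: 59 genes, 4.25% of the risers, held 50% of their summed gain of 159362 TPM, and 73 genes, 3.93% of the fallers, held 50% of their loss of 91481 TPM. The 10 largest gains made up 21.6% of the total gain, and the 10 largest losses 25.4% of the total loss.

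The same genes were then summed in other libraries. The shoot libraries took no part in choosing them. In shoots, the root risers held 5.94% to 7.03% of the TPM in control and 11.4% to 11.8% at 2 h, with no overlap. The root fallers held 9.23% to 11.7% in control shoots and 6.94% to 7.71% in shoots of 2 h, again with no overlap. The later root libraries were in the fit that called the genes, through its filter and its spread. In them the risers held between 7.72% and 9.07% at 6 h, between 8.78% and 9.73% at 12 h, and between 10.8% and 14.2% at 24 h. The fallers held 12.3% to 13.7%, 10.5% to 12.4% and 7.88% to 9.44% at these times.

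**Figure D3:**
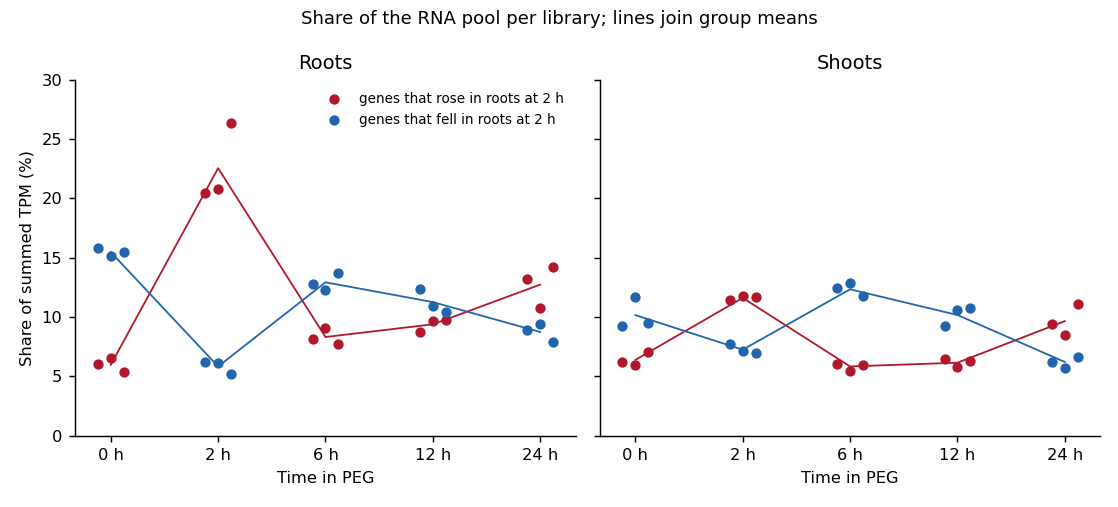
Share of the summed TPM (y axis, percent) held by the genes that rose and the genes that fell in roots at 2 h, in every root and shoot library by time in PEG; points are libraries and lines join group means. The root risers stand at 20.5% to 26.4% at 2 h in roots and at 11.4% to 11.8% at 2 h in shoots, and both sets lie nearer to control at 6 h.

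Libraries 1, 2 and 3 were not alike in the called genes, and library 3 was most often the extreme one. It had the highest value of the 3 for 677 of the 1388 risers and the lowest for 1150 of the 1856 fallers. The same counts over all tested genes were not made, so these do not set the called genes apart from the rest. Library 3 had 19906 genes at 1 TPM or more, against 20411 and 20592 in libraries 1 and 2. It also differed from libraries 1 and 2 in the genes that mark a part of the plant. A class of 756 tested genes was set as shoot-biased, at least 8-fold higher (3 on the log2 scale) in shoots than in roots over the 6 h and 12 h libraries, 6 for each part. Their median was 4.01 TPM in library 3, against 2.13 and 1.82 TPM in libraries 1 and 2 and 2.67 to 3.08 TPM in the controls, while in the shoot libraries of 0 h and 2 h it was 58.5 to 99.5 TPM. Library 3 was not alone in this among the roots, since root library 6 of 6 h had 4.265 TPM. The 654 root-biased genes, set likewise, had a median of 37.6 TPM in library 3, 62.4 and 71.2 TPM in libraries 1 and 2, and 40.7 to 47.75 TPM in the controls. The part of these levels in the calls was not tested. Without library 3, 1019 genes rose and 979 fell, of which 362 and 171 did so at least 4-fold. The excess of falls was thus lost, and the excess of rises at 4-fold or more remained. The falls also became 1137 without control library 32. In bulk RNA, fewer cells of a type and less RNA per cell cannot be told apart.

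Genes with the bias of roots were prominent among the largest rises. Of the 71 genes that rose at least 16-fold, 26 were root-biased (36.6%), against 654 of the 23107 tested (2.83%), and 0 were shoot-biased. Of the 319 that rose 4- to 16-fold, 59 were root-biased (18.5%), and of the 569 that rose 2- to 4-fold, 23 (4.04%). Of the 15 genes that fell at least 16-fold, 5 (33.3%) were shoot-biased, against 3.27% of all tested, and 0 were root-biased. The median standard error was 0.48 among root-biased genes, 0.45 among shoot-biased genes and 0.33 over all tested. Counted the other way, 115 of the 654 root-biased genes rose and 55 fell, 17.6% and 8.41%, with a median change of 0.17. Without library 3, 107 rose and 26 fell, and without control library 32, 110 rose and 36 fell. The median was -0.019 without library 1 and -0.033 without library 2. At a bias limit of 2 in place of 3 on the log2 scale, 200 of 1559 root-biased genes rose and 161 fell (12.8% and 10.3%), with a median of -0.11, close to that of all genes.

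The libraries that set these classes were themselves from PEG-treated plants. A rise in roots that lasted helps a gene into the root-biased class. A fall in roots that lasted helps a gene into the shoot-biased class. The 15 largest falls had medians of 73.2 TPM in roots and 58.0 TPM in shoots at 0 h, and 8.82 and 52.4 TPM at 12 h. How many of them the controls would class as shoot-biased was not counted. When the controls of both parts set the root-biased class instead, which favours genes that were high before treatment, it held 655 genes. Of these, 52 rose and 112 fell, with a median of -0.60, so the balance of the class turned with the libraries used. Of the 71 largest rises, 13 (18.3%) were root-biased by this rule, again against 2.83% of all tested. Shoot-biased genes set at 6 h and 12 h had 27 rises and 51 falls among 756 (3.57% and 6.75%, median -0.081). Their rises were 15, 16 or 17 without library 3, control library 31 or control library 32. Set by the controls, 46 of 811 rose and 32 fell, and at a bias limit of 2, 56 of 1455 rose and 135 fell.

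More abundant genes were called more often. Classes were set by the mean TPM in the 9 root libraries of 6, 12 and 24 h. At 100 TPM and over, 241 of 1702 genes rose and 206 fell (14.2% and 12.1%). At 10 to 100 TPM, 821 of 11348 rose and 1144 fell (7.23% and 10.1%). At 1 to 10 TPM, 286 of 8525 rose and 480 fell (3.35% and 5.63%), and under 1 TPM, 40 of 1532 rose and 26 fell (2.61% and 1.70%). The median standard error of the log2 difference was 0.26 in both classes from 10 TPM up, 0.42 at 1 to 10 TPM and 0.46 under 1 TPM. The part of these errors in the shares called was not tested. Which direction led within a class turned with the scaling. After median-ratio rescaling, 297 rose and 137 fell at 100 TPM and over, 1210 and 862 at 10 to 100 TPM, 372 and 411 at 1 to 10 TPM and 49 and 24 under 1 TPM. After quantile normalization the counts were 206 and 264, 1018 and 1039, 398 and 367, and 50 and 23. Without library 3 the falls were 124, 609, 240 and 6 from the highest class to the lowest, and the rises at 1 to 10 TPM were 183. Without control library 32 the falls were 128, 689, 305 and 15, and the rises at 1 to 10 TPM were 183; the latter were 170 without control library 31. The falls at 1 to 10 TPM were 297 without control library 33, and those under 1 TPM were 16 and 10 without library 1 and library 2. The class under 1 TPM also turned on the filter, which such genes can pass through the libraries compared. In it, 80 rose and 73 fell with no filter, and 7 rose and 2 fell with a filter of 5 TPM.

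**Figure D4:**
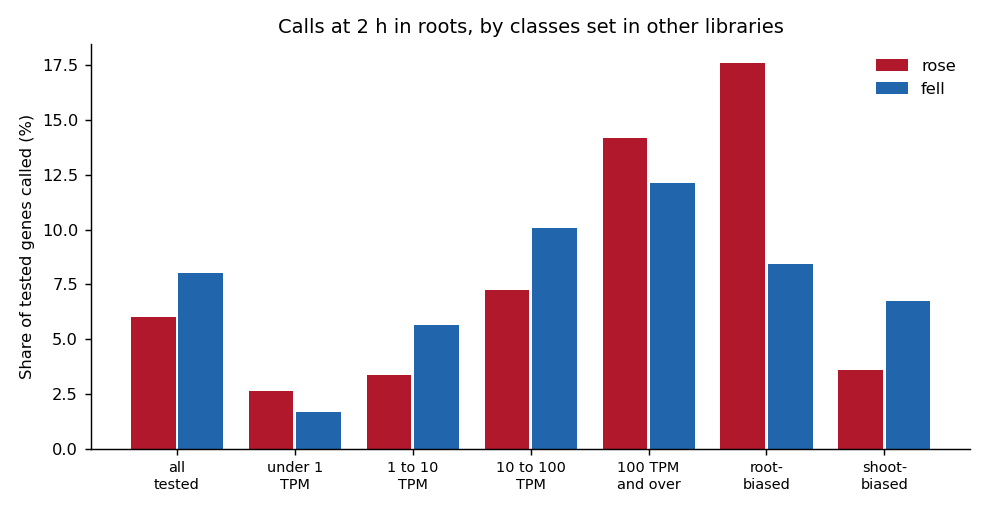
Percent of tested genes that rose or fell in roots at 2 h, over all tested genes and in classes set by level (6, 12 and 24 h root libraries) or by part (6 h and 12 h libraries). The share that rose is 14.2% at 100 TPM and over and 17.6% among root-biased genes, beside 6.01% of all tested; set by the 0 h controls, 7.94% of root-biased genes rose and 17.1% fell.

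Stems and leaves of the 2 h and control groups, 3 libraries each, are not in the root comparison and show the same genes in the other part. The background over the 21662 genes that both parts share was 5.03% rises and 5.47% falls in shoots at 2 h. Among the root risers tested there, 19.0% rose and 1.59% fell in shoots, and 23.0% of all shoot risers rose in roots. Among the root fallers, 2.55% rose and 13.4% fell in shoots, and 20.4% of all shoot fallers fell in roots. The median shoot difference grew with the size of the root change. It was 1.33 for genes that rose at least 16-fold in roots, 0.62 for those that rose 4- to 16-fold, 0.35 for 2- to 4-fold and 0.037 below 2-fold, beside -0.15 over all genes. On the falling side it was -2.12 for the 15 genes that fell at least 16-fold, -0.51 for 4- to 16-fold, -0.40 for 2- to 4-fold and -0.22 below 2-fold. Of those 15 genes, 8 also fell in shoots. Across the 21662 genes, the root and shoot differences had a Pearson r of 0.30 and a Spearman rho of 0.26. Genes are not independent replicates. Root and shoot libraries of one number deviated together from their group means at r of 0.19 to 0.35. Such shared deviations can add to the agreement between the parts. Those r are of single libraries and the 0.30 is of differences of group means, so their sizes cannot be compared. The part of these shared deviations in the r of 0.30 and in the shares and medians above was not tested.

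The response itself differed between the parts for many genes. The root difference minus the shoot difference passed limma's test upward for 930 of 25420 genes (3.66%) and downward for 1020 (4.01%). Among those tested in both parts, the 808 genes with the higher root difference had a median change of 0.77 in roots and -0.82 in shoots. The 947 with the lower root difference had a median of -0.66 in roots and 1.04 in shoots. Of the 808, 404 had the larger change in roots and 404 in shoots, and of the 947, 404 and 543. These genes were chosen for the difference between the parts, so medians of opposite sign are partly built in. The counts of 930 and 1020 became 567 and 637 without shoot control library 31. This test did not pair root and shoot libraries by their number. With the number as a block, the counts were 1042 and 1219.

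**Figure D5:**
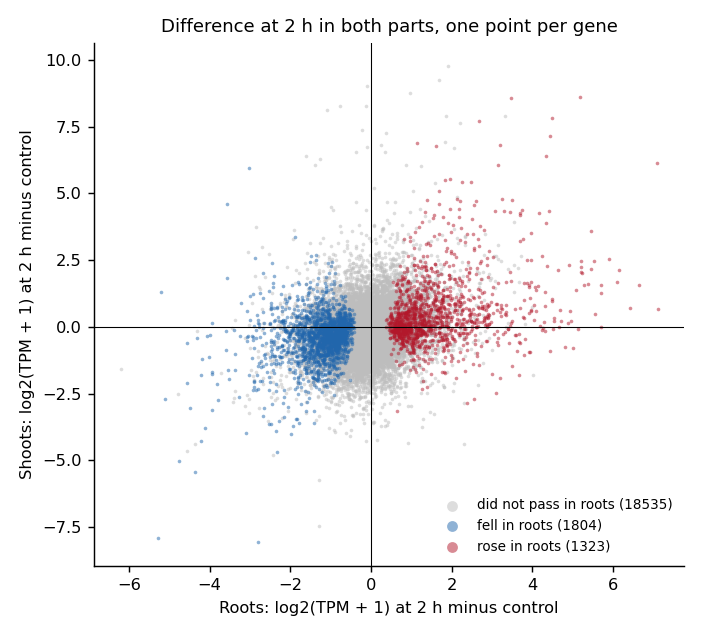
Difference of log2(TPM + 1) between 2 h and control in shoots (y axis) against that in roots (x axis), one point for each of 21662 genes tested in both parts, coloured by the call in roots. Root risers lie mostly to the upper right and root fallers to the lower left, with Pearson r = 0.30 over all genes.

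Root levels at 2 h were also set against those at 6 h, a contrast that shares the 2 h libraries but no control. In it, 709 genes stood higher at 2 h (3.07%) and 1135 lower (4.91%). The balance turned with the scaling: it was 1035 higher and 761 lower after median-ratio rescaling, and 915 and 906 after quantile normalization. The named genes, which were chosen for extreme values in these same 2 h libraries, passed in this contrast, so it adds only their 6 h level: Glyur000803s00029839 with a limma adjusted p of 0.00551, Glyur001663s00027486 with 0.00435, Glyur000027s00001583 with 7.28e-04 and Glyur001069s00022473 with 8.75e-04. These counts leaned on single libraries. Without library 3 they were 429 and 524, without library 4 of 6 h 404 and 599, and without library 6 of 6 h 363 and 402. The lower count was 680 without library 5 of 6 h.

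The levels of the called genes over time show the same course by size of change. For rises of at least 16-fold, the median gene had 10.5 TPM before treatment and 280 TPM after 2 h, then 27.8, 31.7 and 69.97 TPM after 6, 12 and 24 h. For rises of 4- to 16-fold the medians were 7.62, 53.2, 16.4, 17.7 and 26.9 TPM in that order. For falls of at least 16-fold, it had 73.2 TPM before treatment and 2.40 TPM after 2 h, then 42.8, 8.82 and 5.15 TPM after 6, 12 and 24 h. For falls of 4- to 16-fold the medians were 29.5, 4.17, 18.8, 14.2 and 9.63 TPM. The genes were chosen for their values at 0 h and 2 h, so a return toward the control level at later times is partly built into these medians.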

How the data were processed

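Each library has 1 deposited table of TPM for 34445 genes, per the file headers. Tools named by the submitters' processing notes, with no version or role, are HISAT2, StringTie, RSEM, fastp, edgeR and DESeq2. For the genome build and annotation, the sources used here give nothing. Reads of near-identical gene copies may be shared in an unstated way.

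From these TPM, log2(TPM + 1) was fitted with limma 3.58.1 in R 4.3.3 (trend, Benjamini-Hochberg, threshold 0.05) over the 15 root libraries in 5 groups, for genes with at least 1 TPM in at least 3 of them. The test between parts used all 30 libraries. Fold sizes come from log2(TPM + 1) differences, and the pseudocount shrinks those of low genes. The depth is unknown, so no counting intervals are given. The fits were also run on simulated data with independent noise in each gene and library. That noise held no shifts shared across a library, so the run does not bear on the counts above.

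Named genes were, per direction, the largest log2 change and the largest TPM difference among called genes without overlap and with at least 10 TPM in the higher group. Genes and lists were chosen with earlier results of these data known. The planned lists by gene function were not applied, since there are no names. Root and shoot libraries of one number deviated together from their group means. The r was 0.19 to 0.35 in the 6 pairs of 0 h and 2 h, and above 0.1 in 14 of all 15. The number was therefore taken to pair them, though the labels do not state it. The main test between parts did not use this pairing, which entered only in an alternative, with the library number as a block. Alternatives were other filters, pseudocount, scalings, spread, library weights, fewer libraries and leaving out each library.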

Additional observations from a re-analysis of the deposited data

Results flagged for a closer look

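Glyur000803s00029839 is listed because the test of the difference between its root and shoot changes passed. It had 221, 241 and 136 TPM in roots at 2 h and was listed at 0 in the root controls. It was also listed at 0 in all 6 shoot libraries of 0 h and 2 h. The test gave a limma adjusted p of 0.00287, and 0.00375 with the library number as a block. With no change in shoots, the difference tested was the root rise itself. The gene was chosen for that rise, the largest on the log2 scale, so these p-values are not separate from the root test. The gene had too little RNA in shoots to be tested there. Among shoots it had a value above 0 in 1 library of 12 h, 15.6 TPM, and 1 of 24 h, 6.04 TPM. Groups of 3 libraries were not searched for outlying samples.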

How the results depend on the processing

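The calls of the 4 named genes held under all 14 alternatives of the root comparison, with adjusted p of 1.61e-04 to 0.00400 for Glyur000803s00029839, 6.72e-05 to 0.0158 for Glyur001663s00027486, 6.09e-05 to 0.0179 for Glyur000027s00001583 and 8.00e-05 to 0.0307 for Glyur001069s00022473. With library weights, 2949 genes fell in roots, 1353 were higher and 2245 lower at 2 h than at 6 h, and 1903 and 1758 differed upward and downward between the parts; the cause was not tested. With only the libraries compared, which leaves fewer samples to estimate the spread, 766 rose and 758 fell, 677 of these at least 2-fold, and 511 and 534 differed between the parts. Leaving out 1 library at a time gave 975 to 1130 rises and 979 to 1553 falls, 759 to 885 and 714 to 1141 of them at least 2-fold, 363 to 631 higher and 402 to 941 lower at 2 h than at 6 h, and 567 to 1112 and 637 to 1087 differences between the parts. With the library number as a replicate block, 1042 and 1219 genes differed between the parts, and no call of a named gene changed. Of the other counts under an alternative, 199 of 262 were within 1.5 times the main count. The median shoot difference of root risers ranged from 0.20 to 0.43, and the median of the root-biased class, 0.17, turned with the libraries that set it (-0.60) and with a bias limit of 2 (-0.11). With a pseudocount of 0.1, 134 genes rose and 74 fell at least 16-fold. TPM keep no depth, so what low genes can show is not known.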

Other observations

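The changes of genes with neighbouring identifiers were weakly correlated. An identifier has a first and a second number, whose meaning the files do not give. Among 11823 pairs of tested genes with the same first number and consecutive second numbers, the changes in roots at 2 h had a Pearson r of 0.15 across pairs, against 0.067 at a step of 2, 0.016 at a step of 5 and 0.016 at a step of 10. Pairs share genes and, where copies are near-identical, reads, so this is a description. Both members were called in 282 consecutive pairs, and in 193 of these (68.4%) they moved the same way; it was 154 of 233 (66.1%) at a step of 2, 105 of 196 (53.6%) at a step of 5 and 89 of 156 (57.05%) at a step of 10. Where both members changed at least 4-fold, 20 of 23 consecutive pairs moved the same way, 12 of 14 at a step of 2, 2 of 5 at a step of 5 and 4 of 4 at a step of 10.

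Runs of consecutive identifiers called in one direction were short. There were 79 runs of 2 or more among the risers, none longer than 3, and 100 among the fallers. In 1 run of 3 root-biased risers, the levels went from 15.7 ± 8.39, 13.4 ± 8.51 and 14.0 ± 11.4 TPM in control to 144 ± 128, 104 ± 48.5 and 280 ± 207 TPM at 2 h (SD, n = 3), with limma adjusted p of 0.00511, 0.00313 and 9.05e-04. The longest run of fallers had 5 members with log2 changes from -2.47 to -0.66 and adjusted p from 7.47e-04 to 0.0277; in shoots their differences were all positive, from 0.22 to 1.19. These runs were chosen after their values were seen.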
